A study of Mus musculus with 8 samples.

Results

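From the 198209 windows of 1 kb of the mouse genome with at least 3 covered cytosines, 6 were examined cytosine by cytosine together with the 5 kb on each side of them. They were selected on the contrast between the arsenic group and the control group: among windows whose groups did not overlap, they were the 3 lower and the 3 higher ones with the lowest p. The lower windows were chr10:33624001-33625000 at the start of Clvs2, chr8:83442001-83443000 in Scoc and chr4:124526001-124527000 in Gm2164 (mm10). The higher windows were chr5:129264001-129265000 near Adgrd1, chr7:11181001-11182000 near Zscan4d and chr5:96293001-96294000 near Mrpl1. They held 106 covered cytosines and their flanks 85, together 191 of 2130064. Since the differences within the windows were what chose them, they are given as descriptions with no test.

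Reduced representation bisulfite sequencing (RRBS) was performed on F1 males of C3H/HeN dams that drank tap water (control group) or water with 85 ppm sodium arsenite (arsenic group) from gestational day 8 to 18. Cells carrying CD49f/Itga6 were collected magnetically at postnatal day 6 and labelled type A spermatogonia, and each of the 4 control and 4 arsenic samples was a pool of 8 testes from 4 mice. The question was whether the DNA methylation of these cells differed after exposure of the dams. RRBS cuts DNA at CCGG with MspI and reads the ends of the fragments after bisulfite treatment, which turns unmethylated cytosine into T. The level of a cytosine is thus the percentage of its reads that kept C. The study reports a conversion rate short of complete, and an unmethylated cytosine that was not converted counts as methylated. What this adds to low levels, as in the Clvs2 and Scoc windows and most promoters below, was not tested.

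The samples held from 96428439 to 133406260 reads on CpGs, with a median coverage from 31 to 44 reads. Promoters of imprinted genes methylated in the oocyte and of germ line genes silenced in somatic cells are unmethylated in male germ cells. Here 10 promoters of 9 of 12 such imprinted genes had a mean between 52.8% and 54.9% in each control sample and between 49.2% and 57.0% in each arsenic sample, with 8 of the 10 above 50%. Those below were start sites of Inpp5f, at 46.4% and 11.4% (mean of the 8 samples), and whether both are imprinted was not tested. The 12 promoters of 9 of 10 germ line genes had means from 75.4% to 80.8% and from 74.6% to 78.8%, all 12 above 50%, and none of either list was at 0. Tdrd1 (60.3% to 60.8%, mean of the 8 samples) and Hormad1 (82.0%) entered with several close start sites over nearly the same cytosines. Each thus counts more than once in these means. At 4 cytosines from 2 to 4 kb upstream of H19, where male germ cells carry methylation on either allele, the samples ranged from 58.1% to 81.2%. The groups overlapped in all 3 measures. These levels go against those of germ cells alone, and the share of other cells and its part in the values below were not tested. The paper reports higher Itga6 and Gfra1 mRNA in these cells than in those it collected from fetal testes. It also reports separate methylation clusters by stage, and takes the fraction as mainly type A spermatogonia.

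CpG methylation near a transcription start usually goes with a silent promoter, while gene bodies and repeats are methylated in most cell types. Clvs2 encodes clavesin 2, a CRAL-TRIO protein that binds phosphoinositides in clathrin-coated vesicles of neurons. Scoc encodes a short coiled-coil protein of the Golgi that takes part in autophagy. Gm2164 is annotated as a non-coding gene. Adgrd1 encodes an adhesion G protein-coupled receptor, Zscan4d a zinc finger protein of the two-cell embryo, and Mrpl1 a protein of the large subunit of the mitochondrial ribosome.

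The sequences below, read 5′ to 3′ on the plus strand of GRCm38 (mm10) from RefSeq, hold 4 of the 22 measured CpGs of the Clvs2 window, 6 of the 14 of Gm2164, 8 of the 9 near Adgrd1 and all 6 and 7 near Zscan4d and Mrpl1. They are shown because so few CpGs carry each value, and capitals mark the CpGs measured on at least 1 strand. The covered bases of the Scoc window lie in an untranslated first exon and are not shown, nor is the fragment of the Clvs2 window in such an exon.

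Clvs2 (chr10:33624685-33624930), upstream of the start of the gene, which runs on the minus strand: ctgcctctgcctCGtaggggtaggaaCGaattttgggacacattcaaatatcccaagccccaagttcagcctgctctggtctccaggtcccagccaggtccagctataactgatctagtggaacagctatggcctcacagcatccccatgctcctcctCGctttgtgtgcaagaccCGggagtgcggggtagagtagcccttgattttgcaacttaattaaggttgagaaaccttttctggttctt

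Gm2164 (chr4:124526471-124526620): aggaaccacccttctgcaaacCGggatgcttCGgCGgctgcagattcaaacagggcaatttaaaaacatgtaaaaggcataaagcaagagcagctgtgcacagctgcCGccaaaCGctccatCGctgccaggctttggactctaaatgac

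Near Adgrd1 (chr5:129264195-129264415): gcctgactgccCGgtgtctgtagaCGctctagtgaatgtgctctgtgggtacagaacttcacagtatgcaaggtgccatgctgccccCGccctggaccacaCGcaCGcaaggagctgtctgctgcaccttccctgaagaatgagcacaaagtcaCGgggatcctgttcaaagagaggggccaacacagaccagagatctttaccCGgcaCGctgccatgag

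Near Zscan4d (chr7:11181685-11181870): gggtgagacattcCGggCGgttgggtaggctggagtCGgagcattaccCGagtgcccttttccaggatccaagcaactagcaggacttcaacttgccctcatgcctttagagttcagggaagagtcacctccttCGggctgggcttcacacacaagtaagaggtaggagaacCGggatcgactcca

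Near Mrpl1 (chr5:96293001-96293130): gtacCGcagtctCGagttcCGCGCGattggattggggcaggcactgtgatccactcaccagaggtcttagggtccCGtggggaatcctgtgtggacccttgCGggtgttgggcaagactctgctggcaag

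The windows differed in sequence. The Scoc window held 81 CpGs in 1000 bases of 61.2% GC, and the Zscan4d window 14 in 47.9% GC. By restriction sites the 12 cytosines of Scoc lay on 1 fragment of 189 bases, the 10 near Zscan4d on 1 of 159 and the 7 near Mrpl1 on 1 of 156. The Clvs2, Gm2164 and Adgrd1 windows each rested on 2 fragments. Cytosines on 1 fragment and strand are largely read by the same molecules, and coverage is not that of independent molecules, so that intervals here cover counting error only. Coverage was even at 54.4% to 55.8% of cytosines in a sample, and whether both reads of a pair were counted could not be settled from the counts. Inside the windows it was even at 66.7% (Scoc) and 67.1% (Clvs2) of the values, against 45.2% to 60.7% in the others. If they were, the intervals and the limits given for 0 methylated reads are too narrow. The Mrpl1 window was soft-masked over 100% of its length. Its covered sequence, 198 bases with margins, had 8029 other matches in the genome over at least 80% of its length, 4379 of them with at least 95% identity. The Zscan4d sequence had 11 other matches, the best with 93.5% identity. The other 4 had 0 such matches. The counts alone do not show whether reads from such copies were placed on the window. For Zscan4d, 0 of the copies reached 95% identity.

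**Figure D1:**
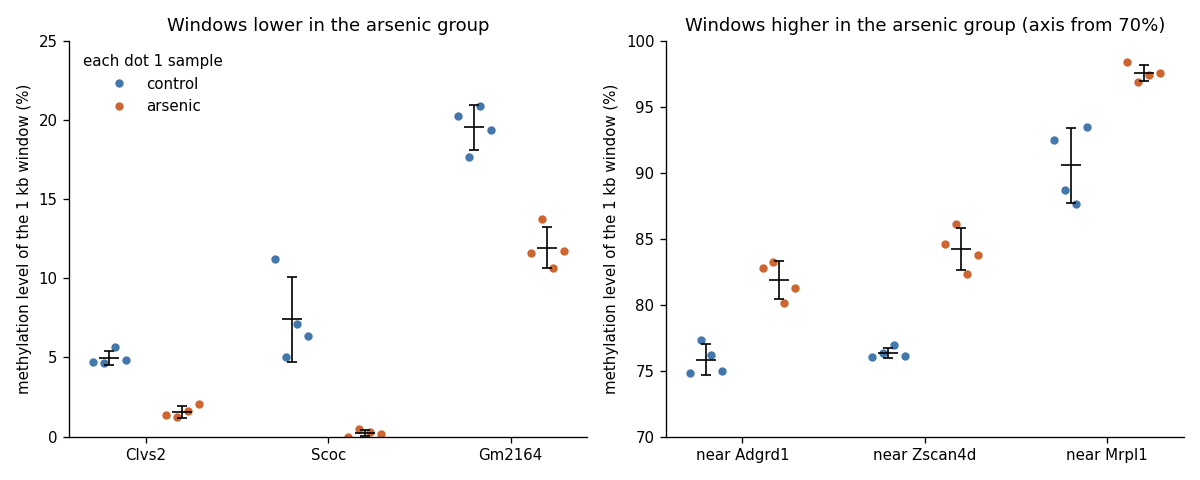
Methylation level (%) of each 1 kb window in the 8 samples (dots), with the mean and SD of each group of 4 (black bars). The left axis starts at 0 and the right axis at 70%. In each of the 6 windows the groups do not overlap, which is how the windows were chosen.

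The Clvs2 window was almost unmethylated, and what incomplete conversion adds at such levels was not tested. Its levels were 4.69%, 4.66%, 5.64% and 4.82% in control samples 1 to 4 and 1.35%, 1.21%, 1.62% and 2.09% in arsenic samples 1 to 4. All 4 arsenic samples were lower than all 4 control samples, and the pooled level differed by −3.37 percentage points (226 of 4581 methylated calls in the control group, 74 of 4733 in the arsenic group). None of its 35 single cytosines separated the groups, nor did any of its 3 combinations of fragment and strand. On the plus strand of the fragment of 170 bases, which lies in the untranslated first exon of Clvs2 and an exon of the antisense RNA Gm15939, control samples 1 and 3 were at 8.14% and 13.5% while control samples 2 and 4 were at 0% and 2.29%. The arsenic samples were between 0% and 1.47%. On the minus strand of the fragment of 256 bases, which runs across the start of the gene, control samples 2 and 4 were the high ones, at 14.5% and 8.56%, against 4.50% and 4.72% in control samples 1 and 3. The 4 arsenic samples were at 1.63%, 6.06%, 2.75% and 4.55%, overlapping with them. Different fragments were thus high in different control samples.

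Single cytosines are ranked here, and in the other windows, by the difference between groups with reads pooled, and the ranges given for the others are on the same scale. The cytosine with the largest decrease in Clvs2, at position 566 of the window counted from 1 at its first base, had 17.0% methylation in control sample 1 (9 of 53 reads, exact 95% interval 8.07% to 29.8%) and 13.3% in control sample 3 (4 of 30 reads, 3.76% to 30.7%). It was at 0% in control samples 2 and 4 and in all 4 arsenic samples, in the last of which 0 of 17 to 41 reads allows up to 17.6% to 7.32% (3 reads). At position 675 the control samples were at 11.4%, 30.6%, 14.3% and 34.6% and the arsenic samples at 9.09%, 13.6%, 7.69% and 17.9%, with overlap. At position 844 they were at 7.14%, 31.8%, 10.3% and 23.7% against 0%, 15.4%, 11.4% and 10%. The other 32 cytosines differed by −8.66 to 2.88 points. By the mean of the sample levels the order was another, with position 501 the lowest (−11.6 points), then 675 (−10.6). Over the 19 cytosines with at least 20 reads in every sample the difference was −1.89 points. Position 566 was not among them, with 14 reads in control sample 4 and 17 in arsenic sample 1.

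The Scoc window was the one closest to 0 in the arsenic group. The control samples were at 11.2%, 4.99%, 7.09% and 6.34%, and the arsenic samples at 0%, 0.449%, 0.289% and 0.134%, a pooled difference of −6.47 points. The 12 cytosines were read on the plus strand alone and lie in the untranslated first exon of the shorter transcripts and an intron of the longer one. All 12 were lower and 9 separated the groups. The methylation rested on few reads, and 2 of them could be 1 molecule if both reads of a pair were counted. The median count of methylated reads was 2 of 18, 2 of 47 and 2 of 36 in control samples 1 to 3 and 4 of 44.5 in control sample 4. At position 498, with the largest decrease by pooled reads (position 507 by the mean of the sample levels), the control samples had 2 of 18, 2 of 48, 4 of 36 and 4 of 43 methylated reads, levels of 11.1%, 4.17%, 11.1% and 9.30%. The arsenic samples had 0 of 23, 0 of 37, 0 of 27 and 0 of 62, which allows up to 13.0%, 8.11%, 11.1% and 4.84%. The lowest control level lay below each of these limits. Position 507 gave 11.8%, 4.26%, 11.1% and 8.70% and position 531 gave 11.1%, 4.55%, 5.88% and 9.09% in the control samples, with 0% in all 4 arsenic samples at both.

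The Gm2164 window lay in an exon and an intron of the non-coding gene, 130487 bases from its start. Its levels were 20.2%, 17.6%, 20.9% and 19.3% in the control samples and 11.6%, 13.7%, 10.7% and 11.7% in the arsenic samples, a pooled difference of −7.56 points. The difference sat mainly on the minus strand of the fragment of 392 bases, where 9 cytosines averaged 39.0%, 32.7%, 33.3% and 30% in the control samples and 18.8%, 16.4%, 10.3% and 15.2% in the arsenic samples. This was the combination of fragment and strand with the largest difference of the 15 in the 6 windows (−19.1 points). On the plus strand of the same fragment the control samples were at 11%, 6.67%, 15.3% and 9.34% and the arsenic samples at 1.24%, 7.86%, 9.59% and 3.11%, with overlap. The adjoining fragment of 132 bases differed by 1.83 points on the plus strand and by −0.462 on the minus strand.

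The 3 cytosines with the largest decrease lay on that minus strand. Position 503 was at 47.4%, 35.1%, 40.7% and 35.1% in the control samples and 15.8%, 16.7%, 6.06% and 14.6% in the arsenic samples. Position 506 was at 40.5%, 40.5%, 32.1% and 36.1% against 15.8%, 17.1%, 9.09% and 14.3%. Position 586 was at 36.8%, 35.3%, 44.8% and 33.3% against 16.7%, 18.9%, 8.82% and 13.3%. At all 3 the groups did not overlap, with 18 to 45 reads per sample. The other 23 cytosines differed by −18.8 to 8.18 points. With at least 20 reads in every sample 7 cytosines remained, and their difference was −1.51 points. Positions 503, 506 and 586 were not among them, since arsenic sample 1 had 18 or 19 reads there. The smaller difference is thus that of other cytosines.

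Both strands of a CpG usually carry the same level, and at 578441 CpGs read on both strands in the series 1.56% had strands over 20 points apart (mean of the 8 samples). In the Gm2164 window the minus strand was higher at each of the 12 CpGs read on both, by 6.06 to 20.5 points, and 1 passed 20 points. The strand difference at position 505 was 29.1, 33.6, 19.9 and 27.3 points in the control samples and 15.8, 8.32, 0.758 and 10.6 in the arsenic samples. The groups did not overlap in it, but it uses the values that chose the window. The source of the strand difference was not tested.

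**Figure D2:**
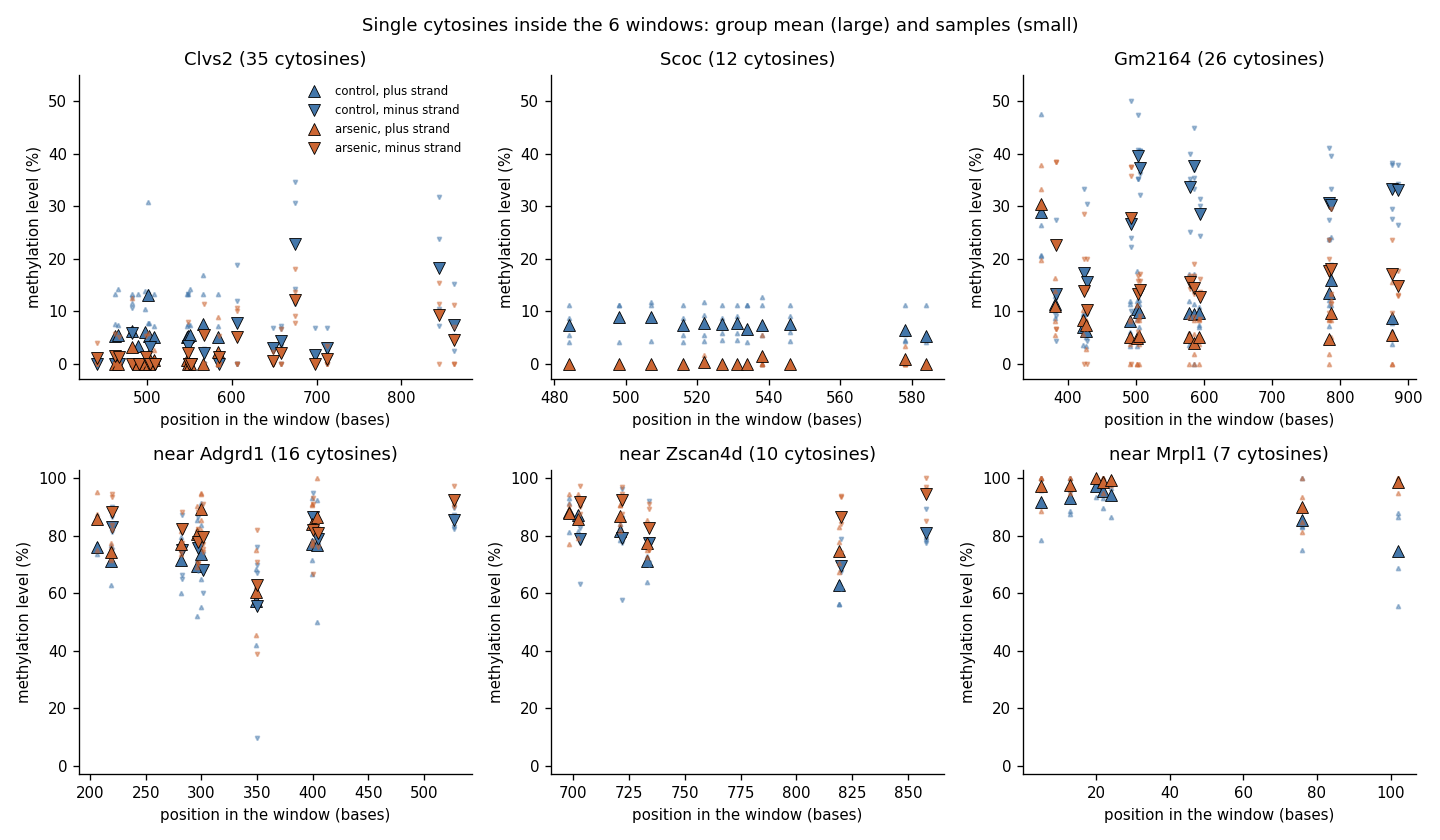
Methylation level (%) of the 106 single cytosines against their position in the 1 kb window (bases), as group means (large triangles) and single samples (small), upward for the plus strand and downward for the minus strand. In Scoc all 12 arsenic means lie below the control means, and in Gm2164 the separation is on the minus strand.

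The window near Adgrd1 lay between genes, 59402 bases past the end of Adgrd1. The control samples were at 74.8%, 77.3%, 76.2% and 75.0% and the arsenic samples at 82.8%, 83.2%, 80.1% and 81.2%, a pooled difference of 5.98 points. Of 16 cytosines 15 were higher and 2 separated the groups. Of 4 combinations of fragment and strand 1 did, the minus strand of the fragment of 127 bases, which took 37.5% of the calls. It held 79.8%, 84.6%, 83.5% and 81.0% in the control samples and 86.5%, 85.5%, 88.5% and 86.2% in the arsenic samples. The cytosine with the largest increase, at position 300, was at 55.1%, 83.7%, 91.3% and 64.9% against 95%, 94.5%, 81.8% and 85.4%, with overlap. The opposite strand at position 301 was at 73.6%, 69.2%, 60% and 69.0% against 74.2%, 90.9%, 75.4% and 77.2%. Control sample 3, the highest control sample at position 300, was the lowest at 301. Position 404 was at 78.6%, 92.6%, 50% and 86.2% against 100%, 81.1%, 80.8% and 83.8%. The other 13 cytosines differed by −2.25 to 10.1 points. At position 350 control sample 3 was at 9.68% (3 of 31 reads, exact 95% interval 2.04% to 25.8%), far from the 67.1% to 76.2% of the other control samples, and arsenic sample 2 was at 39.0%.

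The window near Zscan4d lay 14853 bases from that gene, in an intron of Gm6909. Its levels were 76.1%, 76.3%, 76.9% and 76.1% in the control samples and 84.6%, 86.1%, 82.3% and 83.8% in the arsenic samples, a pooled difference of 7.79 points. Of 10 cytosines 9 were higher, and 0 separated the groups. The control samples were close to each other over the window, but their strands were not: control sample 3 was lowest on the plus strand (71.0%) and highest on the minus strand (87.2%), and control sample 4 was highest on the plus strand (78.9%) and lowest on the minus strand (69.7%). The minus strand was at 73.2% and 76.3% in control samples 1 and 2 and at 87.3%, 88.8%, 88.5% and 89.5% in the arsenic samples. Position 820 was at 67.2%, 61.4%, 69.8% and 78.9% against 93.5%, 84.2%, 93.8% and 73.9%. Position 858 was at 77.4%, 78.3%, 89.3% and 78.9% against 100%, 85%, 96.0% and 97.1%, and position 703 at 77.4%, 82.6%, 92.9% and 63.2% against 87.5%, 90%, 92.0% and 97.1%. The other 7 cytosines differed by −1.02 to 12.2 points.

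The window near Mrpl1, 26274 bases past the end of that gene and in repeat sequence, was close to full methylation. The control samples were at 92.4%, 88.7%, 87.6% and 93.5% and the arsenic samples at 98.4%, 96.9%, 97.4% and 97.5%, a pooled difference of 6.94 points. One cytosine, at position 102, was at 87.8%, 68.6%, 55.6% and 86.7% in the control samples and at 100%, 94.7%, 100% and 100% in the arsenic samples (27 to 55 reads). Its difference of 23.0 points was the largest increase among the 106 cytosines, and the other 6, all higher in the arsenic group, differed by 2.30 to 5.16 points with overlap. Position 5 was at 95.9%, 92.0%, 78.6% and 100% against 88.6%, 100%, 100% and 100%. Position 13 was at 88.7%, 95.8%, 100% and 87.5% against 100%, 94.9%, 100% and 96.3%.

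**Figure D3:**
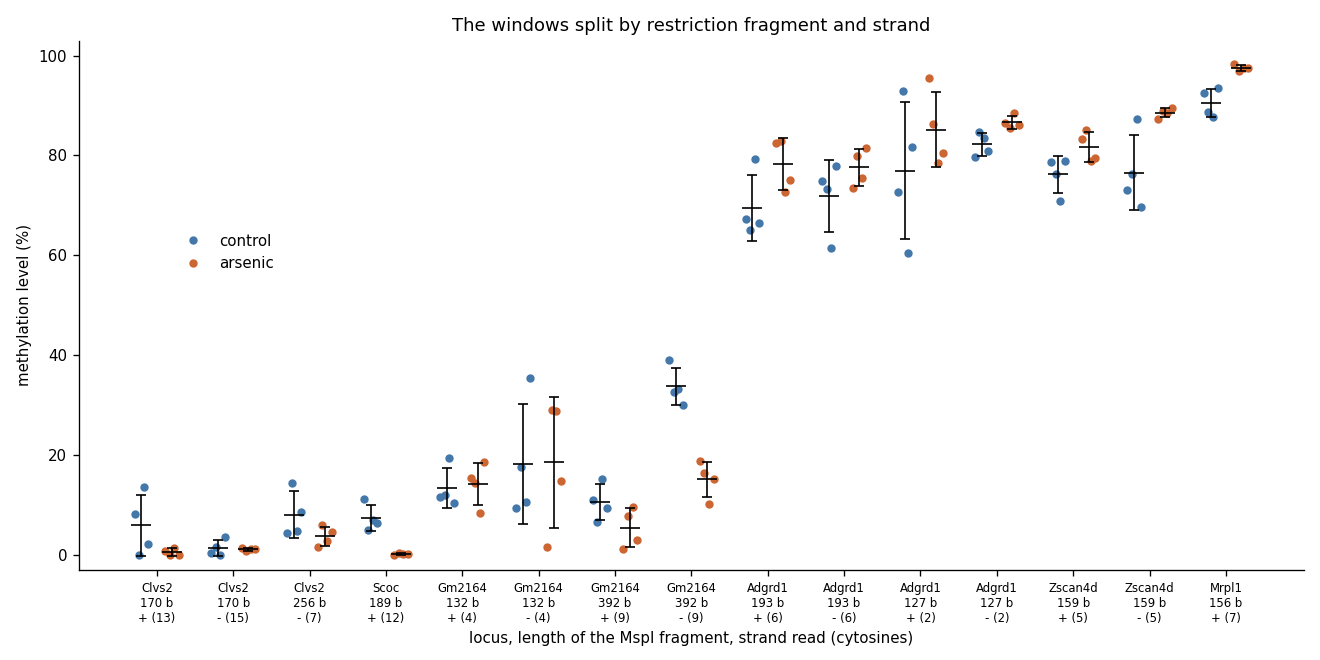
Methylation level (%) of the 15 combinations of MspI fragment and strand that make up the windows, for each sample (dots) with group mean and SD (black bars, n = 4). The x axis names the locus, the fragment length in bases (b), the strand and the number of cytosines. The groups separate in 5 of the 15: Scoc, the minus strand of the 392-base fragment of Gm2164, the minus strand of the 127-base fragment near Adgrd1, the minus strand near Zscan4d, and Mrpl1.

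Single cytosines were also compared by logistic regression without overdispersion, at a q of at most 0.01 and a difference of at least 10 points. These are the thresholds of the study's differentially methylated cytosines. The fit and the Benjamini-Hochberg adjustment were not run in methylKit, and the counts differ slightly from those of the study. Over all cytosines 11761 of 2130064, or 0.552%, were called, 6890 lower and 4871 higher. In the windows 6 of 106 were called (1 in Clvs2, 3 in Gm2164, 1 near Adgrd1 and 1 near Mrpl1), from which nothing can be read, since the windows were chosen on this contrast. Groups did not overlap at 2.10% of all cytosines, at 19 of 106 in the windows and at 1 of 85 in the flanks. In the flanks, which the choice did not use, 0 of 85 cytosines were called. With overdispersion scaling 0 cytosines of the genome were called, and 82476 of 2130064, or 3.87%, had an unadjusted p under 0.05.

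Over 1 kb windows the regression was scaled for overdispersion, the spread between samples beyond counting error, and tested with an F test. It called 0 of 198209 windows (0%), with 8933 at an unadjusted p under 0.05. Limma called 0 as well, with 10609 at an unadjusted p under 0.05. The groups did not overlap in 6126 windows (3.09%), 4034 lower and 2092 higher. The p values of the 6 windows, used to choose them, were 8.20e-05 (Clvs2), 0.000151 (Scoc), 0.000235 (Gm2164), 0.000705 (Adgrd1), 0.000712 (Zscan4d) and 0.000821 (Mrpl1), each with a q of 0.977. The next window among the lower ones, chr14:8098001-8099000 in Pxk, had a p of 0.000352 in the same regression, with 3.66% against 0.527%. The next among the higher ones, chr6:122670001-122671000, 36489 bases from Nanog, had a p of 0.000826 there, with 18.4% against 28.0%. Its difference of 9.59 points was larger than that of any of the 3 higher windows chosen.

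In the flanks, which were not used to choose the windows, 0 group differences passed a test. Scoc and Zscan4d had 0 covered cytosines within 5 kb outside the window, and 4 loci could be compared. The 15 cytosines beside the Clvs2 window, 972 bases or more away in the gene, were at 79.7%, 78.2%, 79.3% and 81.3% in the control samples and 82.9%, 75.3%, 80.2% and 71.9% in the arsenic samples. The groups overlapped, and their difference of −2.04 points gave p = 0.486 (two-sided exact permutation test over 70 assignments, smallest possible p 0.0286). The 26 cytosines beside Gm2164 averaged 64.1% ± 1.86 (SD, n = 4) and 65.4% ± 1.06 (exact permutation test, p = 0.343), a difference of 1.29 points. The 12 beside Adgrd1 averaged 31.2% ± 5.16 and 29.3% ± 0.907 (SD, n = 4, exact permutation test, p = 0.543), a difference of −1.90 points. Control sample 4, at 23.6%, was the lowest of the 8 there and without it the difference over sites was −4.44 points (exact permutation test, p = 0.0286). The 32 beside Mrpl1 averaged 88.1% ± 0.579 and 88.1% ± 1.05 (SD, n = 4, exact permutation test, p = 0.943). All of them were soft-masked like the window. The nearest, 20 bases before the window, lay on the same fragment of 156 bases and strand as the window cytosines, and so is not independent of them. These differences weight sites equally. With the reads of each group pooled, as for the windows, they were −1.58 (Clvs2), −0.745 (Gm2164), 3.01 (Adgrd1) and −1.09 points (Mrpl1), against −3.37, −7.56, 5.98 and 6.94 in the windows. The sign of the Gm2164 and Adgrd1 flanks thus turned with the weighting. Over the flanks of all windows the regression called 0 of 149015 (0%), with 7455 at an unadjusted p under 0.05, and the 4 flanks had a q of 0.959 to 0.982. Limma called 0, with 8092 under 0.05.

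Along each locus the level, as the mean of the 8 samples, changed with position. Around Gm2164 the cytosines from 2869 to 3160 bases before the window averaged 72.8% to 95.3%. The level was 9.71% and 12.1% on the strands of the CpG just past the window, and cytosines from 172 to 464 bases past it were between 29.9% and 83.9%. Another, 138 bases past it, was at 0% in all 8 samples. The flank cytosine with separated groups, 121 bases past the window, was at 11.8%, 12.5%, 5.88% and 14.3% in the control samples and 17.6%, 20%, 23.1% and 28.0% in the arsenic samples, higher where the window was lower. The flank before the window near Adgrd1 lay between 58.2% and 69.9%, and the flank 3621 to 3740 bases past it between 5.86% and 19.1%. Clvs2 rose from near 0 at its start to 44.9% to 93.2% in the flank, which is in coding sequence for 14 of 15 cytosines.

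**Figure D4:**
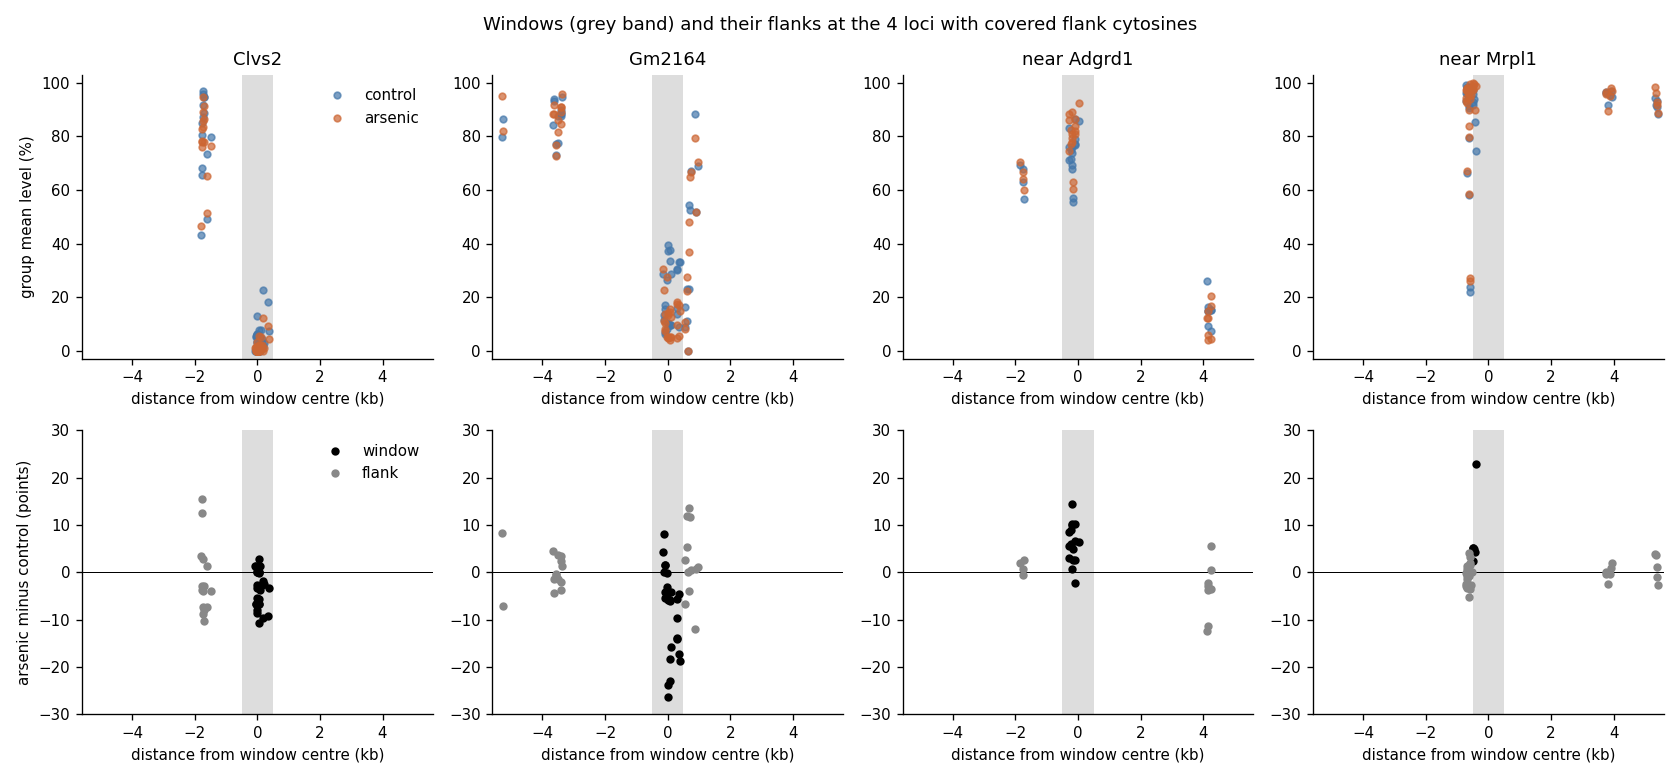
Group mean level (%, top) and pooled difference, arsenic minus control (percentage points, bottom), of each cytosine against its distance from the window centre (kb), for the 4 loci with covered flanks. The window is the grey band. In the flanks 44 cytosines lie below and 40 above a difference of 0, between −12.4 and 15.6 points.

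The strands also differed near Mrpl1. Of 9 CpGs read on both strands in its flank, 4 had strands over 20 points apart, by 31.2, 38.0, 70.8 and 74.7 points, with the minus strand higher in all 8 samples at each. The most unequal, 84 bases before the window, had a mean of 24.0% on the plus strand and 98.7% on the minus strand. Gaps over 20 points were found at 1.56% of the 578441 CpGs read on both strands in the series. The dams were C3H/HeN and the reference genome is C57BL/6J, and whether the sequences differ at these CpGs, or the reads come from other copies, was not tested.

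The share of calls on each window (coverage summed over its cytosines), which the choice did not use, did not separate the groups in any of the 6. The Clvs2 window took 10.5 ± 1.57 (SD, n = 4) of 1000000 calls on CpGs in the control group and 10.4 ± 1.74 in the arsenic group (exact permutation test, p = 0.943). The other 5 gave ratios of arsenic to control between 0.934 and 1.04 with exact permutation p between 0.457 and 0.829.

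The promoters of the genes were then read, from 1 kb before to 100 bases after each start. That of Clvs2 overlaps the window and is part of the description above. That of the longer Scoc transcript was methylated, at 89.0%, 89.1%, 91.8% and 82.3% in the control samples and 85.3%, 91.2%, 88.2% and 92.7% in the arsenic samples, over 3 cytosines. That of Mrpl1 averaged 1.52% ± 0.798 and 1.65% ± 1.16 (SD, n = 4), and that of Gm2164, over 37 cytosines, 1.92% ± 1.75 and 0.791% ± 0.608. The groups overlapped in all 3, with adjusted p from the regression over all 14865 promoters of 0.935, 0.995 and 0.861. The shorter Scoc transcripts had 2 covered cytosines in the promoter, both in the window, and the promoters of Adgrd1 and Zscan4d had 0. In the bodies of the genes outside the windows, 313 cytosines of Gm2164 averaged 47.7% ± 0.612 and 47.8% ± 0.584, 206 of Adgrd1 69.5% ± 0.785 and 68.5% ± 0.817, 32 of Clvs2 82.8% ± 1.84 and 81.1% ± 2.44 and 22 of Mrpl1 22.0% ± 1.20 and 22.0% ± 1.26 (SD, n = 4 in each group). The groups overlapped in all 4.

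Genes of the same families were read as background. Over all 14865 promoters of 12637 genes, 0 (0%) were called, and 5.06% had an unadjusted p under 0.05, with 0 called by limma, which had 810 under 0.05. The median level over the 8 samples was 1.70% and the median difference −0.0684 points, with 7939 of the 14865 promoters lower. Of 7 covered promoters of CRAL-TRIO lipid carriers, Clvs2 among them, 6 were lower and 0 had an unadjusted p under 0.05, with a median difference of −0.995 points. The Clvs2 promoter overlaps the chosen window, so that its place among the 6 comes from the choice. Sec14l1, a lipid carrier of the SEC14 family, was at 1.47% ± 0.990 and 0.417% ± 0.344 (SD, n = 4), and 6 of the 7 were below 10%. Of 12 promoters of Golgi and autophagy partners of Scoc, 7 were lower and 1 had an unadjusted p under 0.05. This was Arl3, a small GTPase, at 2.54%, 2.32%, 2.60% and 3.19% in the control samples and 2.32%, 1.43%, 2.00% and 1.58% in the arsenic samples (adjusted p = 0.845 in the regression).

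Of 12 promoters of adhesion G protein-coupled receptors, 6 were lower, with a median difference of −0.000851 points, and 1 had an unadjusted p under 0.05. This was Celsr3, a cadherin receptor of planar polarity, at 2.16%, 0.562%, 0.405% and 1.56% against 0%, 0%, 0% and 0.327% (adjusted p = 0.845 in the regression). Of 37 promoters of the mitochondrial large ribosomal subunit, 33 were below 10%, 20 were lower, and 2 had an unadjusted p under 0.05, with a median difference of −0.0536 points. Mrpl2 entered with several start sites over the same 43 cytosines, so that its value, which is also this median, counts more than once. Mrpl49 was at 1.36%, 3.89%, 2.48% and 2.40% in the control samples and 0.486%, 0.192%, 0.465% and 0.686% in the arsenic samples (adjusted p = 0.845 in the regression), and Mrpl13 at 1.88% ± 0.474 and 0.930% ± 0.403 (SD, n = 4). None of the promoters of the Zscan4 family (5 genes in the annotation) or of 12 other genes of the two-cell stage had 3 covered cytosines.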

How the data were processed

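RRBS counts of 4 control and 4 arsenic samples were used. The authors trimmed reads with Trim Galore 0.6.5, mapped them to mm10 with Bismark 0.22.3 and joined the samples with methylKit 1.22.0 (versions per the submitters' processing notes), and deposited counts of covering, methylated and unmethylated reads per cytosine and strand, not normalized. The lowest coverage is 10 and coverage equals the sum of both counts in every row. Counts were summed over 1 kb windows, flanks of 5 kb and promoters with at least 3 cytosines on chromosomes 1 to 19, X and Y. Logistic regression with overdispersion scaling held at 1 or above was tested by F test with Benjamini-Hochberg adjustment, single cytosines by likelihood ratio. Calls needed q of at most 0.01 and 10 points. Single values were compared by exact permutation. The study's region caller was not run. No label says whether pools share a litter, so that p-values with overdispersion scaling, of limma and of permutation measure the spread between pools. Those without overdispersion scaling, as for single cytosines, measure counting error only.

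The windows and gene lists were chosen with earlier results of these data known. Named were the 6 loci, in each window the 3 cytosines with the largest difference in its direction, the next window in each direction, and called promoters or up to 4 per list with the lowest p. Annotation and sequences came from RefSeq on GRCm38.p6, with 31647 promoters of curated transcripts. Copies were searched with blastn 2.17.0 (e-value 1e-05). The scripts were tested on simulated data. Limma 3.58.1 was run in R 4.3.3 and the rest in Python 3.11.15 with scipy 1.17.1, numpy 2.4.6, pysam 0.24.0, matplotlib 3.10.9 and pandas 2.3.3. Coverage minimum, strands, weights, window frame, tests and samples left out were varied.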

Additional observations from a re-analysis of the deposited data

Results flagged for a closer look

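In groups of 4 samples, the highest or lowest sample was compared with the rest. The measure was its gap to the nearest sample over the range of the group (Dixon's critical value 0.829). It was taken over 32 groups of window levels, flank levels and shares of calls. Chance flags about 1 in 20 groups, or 1.6 here, and 2 were found. Control sample 3 was high in the Clvs2 window, at 5.64%, with the other control samples between 4.66% and 4.82%. Arsenic sample 2 was low in the Gm2164 flank, at 63.8%, with the others between 65.9% and 66.0%.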

How the results depend on the processing

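The counts of called windows, flanks and promoters were 0 with limma, with unfloored scaling, under other coverage, strand, cytosine, frame, gap and promoter settings and with any 1 sample left out. Without overdispersion scaling 934 windows, 325 flanks and 52 promoters were called. Single cytosines called numbered 6706 with strands summed, 0 with overdispersion scaling, 15 with counts halved and 11541 to 13120 with 1 sample left out. Halving was chosen after seeing the data, because coverage was even at 54.4% to 55.8% of cytosines in a sample.

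Same-numbered control and arsenic samples did not deviate together over the windows (correlations from 0.000223 to 0.00481), and not every sample correlated best with its own number, so that the numbers were not taken as pairs. With a replicate block 0 windows, 0 flanks and 0 promoters were called, and the flank differences gave exact sign-flip p from 0.500 to 1.00 (smallest possible 0.125).

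The window differences kept their sign in 79 of 81 recomputations, most of which could not turn it. The sign could not turn with 1 sample left out, since the windows were chosen for groups that do not overlap. Summing strands used the same counts and gave the same difference. With the frame 500 bases earlier, that of Gm2164 was 0.655 and that of Mrpl1 −1.24 points, over other cytosines. With coverage of at least 20 the Clvs2 difference was −1.89 over 19 cytosines and that of Gm2164 −1.51 over 7, and Scoc had none left. This setting dropped the cytosine with the largest decrease in each of these windows. The earlier frame near Zscan4d and the later one near Mrpl1 held no cytosine. With fragments weighted equally, chosen after seeing the data, that of Gm2164 was −5.78. Leaving out 1 sample moved them to −3.54 to −3.15 (Clvs2), −7.28 to −5.83 (Scoc), −8.21 to −7.14 (Gm2164), 5.44 to 6.52 (Adgrd1), 7.08 to 8.42 (Zscan4d) and 6.02 to 7.81 (Mrpl1). With 1 sample left out the flank differences were −3.79 to −0.158 (Clvs2), 0.588 to 2.08 (Gm2164), −4.44 to −0.785 (Adgrd1) and −0.320 to 0.449 (Mrpl1). Only that of Adgrd1 without control sample 4 (−4.44) reached the smallest exact permutation p, 0.0286. With reads in place of sites they were −1.52 (Clvs2), −0.747 (Gm2164), 3.22 (Adgrd1) and −1.26 (Mrpl1), the sign turning for Gm2164 and Adgrd1, with exact permutation p from 0.257 to 0.657. At 500 bases or more from the window that of Mrpl1 was 0.795 (exact permutation test, p = 0.400). At 14 to 60 reads on most sites, single levels are imprecise.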
